A study of Homo sapiens with 58 samples.

Results

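Keratin genes encode the proteins of the keratin filament, the intermediate filament of epithelial cells. They were taken as every gene whose symbol is KRT followed by a number and at most 1 letter, which leaves out keratin-associated proteins and pseudogenes. The array carries 19775 genes with a probe set of 1 symbol, and 44 of them met this rule. Where a gene had several such probe sets, the brightest over all 58 arrays stood for it. RNA of HaCaT cells, an immortalized line of human keratinocytes, was measured on Affymetrix U133 Plus 2.0 arrays. All lines derive from HaCaT. They are HaCaT-vector (forced expression labelled mock), HaCaT-EGFR, HaCaT-p65 (labelled RELA/p65) and HaCaT-HRAS, which has the mutant HRAS-VAL12D. In serum, HaCaT-EGFR had 5 arrays, and HaCaT itself, HaCaT-vector, HaCaT-p65 and HaCaT-HRAS had 3 apiece. Without serum or ligand (starved), 7 arrays came from HaCaT-EGFR (4 h and 8 h), 3 from HaCaT-p65 (4 h and 8 h) and 4 from HaCaT-vector (4 h). EGF without serum was measured in HaCaT-EGFR (7 arrays, 4 h and 8 h) and HaCaT-vector (4 arrays, 4 h). TNF-α without serum was measured in HaCaT-p65 (5 arrays, 4 h and 8 h) and HaCaT-vector (3 arrays, 4 h). In HaCaT-EGFR, gefitinib, an inhibitor of the EGFR kinase, was added to EGF on 2 arrays and to serum on 2 arrays, at 4 h and 8 h. LY294002, an inhibitor of PI3K, and the agent labelled U1026 were added to EGF for 4 h, with 1 array of each in both HaCaT-EGFR and HaCaT-vector. No source used here states the promoter of the introduced genes, whether a line is 1 clone, or that replicates are separate cultures, so p-values reflect array-to-array spread alone, which may be technical.

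A keratin filament is built from pairs of 1 type I and 1 type II keratin, and the pairs an epithelial cell makes follow its layer and kind. In epidermis, basal cells make KRT5 with KRT14, and KRT15 is a further basal keratin, whereas cells that have left the basal layer make KRT1 with KRT10. KRT16 is a keratin of wounded and hyperproliferative epidermis, KRT4 with KRT13 is the pair of the upper layers of moist mucosa, and KRT8, KRT18, KRT7, KRT19 and KRT20 are keratins of simple, single-layered epithelia. Hair follicles have keratins of their own, of the root sheath and of the hair and nail shaft.

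RefSeq promoter sequences (GRCh38.p14) were found for 29 of the 44 keratins, 27 of them with a single entry. The 250 bases before the start are shown for 4 keratins the results turn on, namely KRT20 and KRT4, which showed the largest rise and the largest fall, and KRT5 and KRT8, a basal and a simple keratin that moved in opposite directions against HaCaT. All 4 lie on the minus strand and are written 5′ to 3′, and capitals mark TATAA or ATAAA in the last 50 bases only.
KRT20 (chr17:40885243-40885492): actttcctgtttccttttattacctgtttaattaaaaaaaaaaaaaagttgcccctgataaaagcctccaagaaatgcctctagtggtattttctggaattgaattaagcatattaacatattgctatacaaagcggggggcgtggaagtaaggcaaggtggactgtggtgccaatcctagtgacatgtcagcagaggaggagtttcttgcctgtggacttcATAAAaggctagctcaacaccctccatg
KRT4 (chr12:52814117-52814366): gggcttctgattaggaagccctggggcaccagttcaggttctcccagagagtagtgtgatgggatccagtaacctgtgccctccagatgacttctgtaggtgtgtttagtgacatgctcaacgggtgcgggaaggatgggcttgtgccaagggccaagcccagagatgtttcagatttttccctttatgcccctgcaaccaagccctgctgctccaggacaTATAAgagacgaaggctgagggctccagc
KRT5 (chr12:52520395-52520644): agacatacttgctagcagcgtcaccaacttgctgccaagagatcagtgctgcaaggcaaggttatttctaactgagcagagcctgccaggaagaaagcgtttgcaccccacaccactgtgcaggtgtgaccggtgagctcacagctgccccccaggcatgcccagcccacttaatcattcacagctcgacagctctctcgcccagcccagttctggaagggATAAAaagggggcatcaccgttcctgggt
KRT8 (chr12:52926470-52926719): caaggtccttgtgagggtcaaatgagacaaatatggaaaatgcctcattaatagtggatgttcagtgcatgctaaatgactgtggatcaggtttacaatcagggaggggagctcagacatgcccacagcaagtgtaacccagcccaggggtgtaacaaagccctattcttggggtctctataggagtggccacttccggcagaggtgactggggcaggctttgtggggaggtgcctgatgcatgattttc
TATAA or ATAAA, which can overlap each other, was searched on the gene's own strand in the last 50 of these bases. It was found in 25 of the 27 keratins, against 8.1% of all 35116 promoter entries, and began 28 bases before the start in KRT20 and 29 in KRT4 and KRT5. GGGCGG, the core of an Sp1 site, was found on either strand of the 250 bases in 4 of the 27, against 42.6% of all entries. TGANTCA, the AP-1 motif, was found on either strand in 0 of the 27, against 6.57%. Of the 27, only 5 passed in at least 1 comparison below. KRT7, KRT13, KRT14, KRT15, KRT16, KRT18, KRT19 and KRT23 are not among the 27, so these shares do not describe them. These matches describe letters in a window and were not tested.

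In HaCaT-HRAS the HRAS probe set, which also reads the introduced gene, stood at 9.98 ± 0.0908 (SD, n = 3) on the log2 scale in serum against 7.57 ± 0.0949 (SD, n = 3) in HaCaT-vector. The EGFR probe set stood at 9.58 ± 0.118 (SD, n = 5) in HaCaT-EGFR against 9.59 ± 0.114 (SD, n = 3), and the RELA probe set at 10.24 ± 0.156 (SD, n = 3) in HaCaT-p65 against 9.97 ± 0.0463 (SD, n = 3). Only HRAS passed in its own line (limma), so these probe sets do not show raised EGFR or RELA RNA in the lines labelled with them, and the line names follow the labels. Beside the keratins, 7 keratinocyte markers with a probe set (among them DSG3, ITGA6, CDH1, PERP and SFN) were between 7.72 and 13.2 on every array. Markers of melanocytes stayed at or below 5.96 and of leukocytes at or below 5.16. Fibroblast markers reached 7.33 (COL1A1), and the endothelial marker CDH5 reached 8.73 in HaCaT-HRAS. Several arrays stood apart in keratins. HaCaT replicate 1 was high in KRT4, KRT13 and KRT1, and both HaCaT-EGFR arrays of processing date 3 with replicate number 3, starved and EGF, were low in KRT5, KRT14, KRT15, KRT4 and KRT13.

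Of the 44 keratins, 26 were below the median of all genes (6.17 on the log2 scale) in every condition, among them KRT2 and all hair keratins but KRT33A. The 20 hair keratins with a probe set ran from 2.84 to 6.35, the highest being KRT33A. Over the 20 comparisons, 15 keratins passed limma's test in at least 1 (34.1%), against 39.2% of all genes. They were 3 of 3 basal keratins (KRT5, KRT14, KRT15), 6 of 6 of simple epithelium (KRT7, KRT8, KRT18, KRT19, KRT20, KRT23), 3 of 7 of mucosa and cornea (KRT4, KRT13, KRT24), KRT16, 1 of 6 suprabasal keratins (KRT80) and 1 of 8 of the hair root sheath (KRT72). The other 29 passed in none, and they include KRT1, KRT10 and KRT2. Of the 18 keratins above the median of all genes in at least 1 condition 13 passed, and of the 26 below it 2 passed, KRT24 and KRT72. KRT6A, KRT6B, KRT6C and KRT17, the other keratins of wounded epidermis, had no probe set of a single symbol and were not analysed here.

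**Figure D1:**
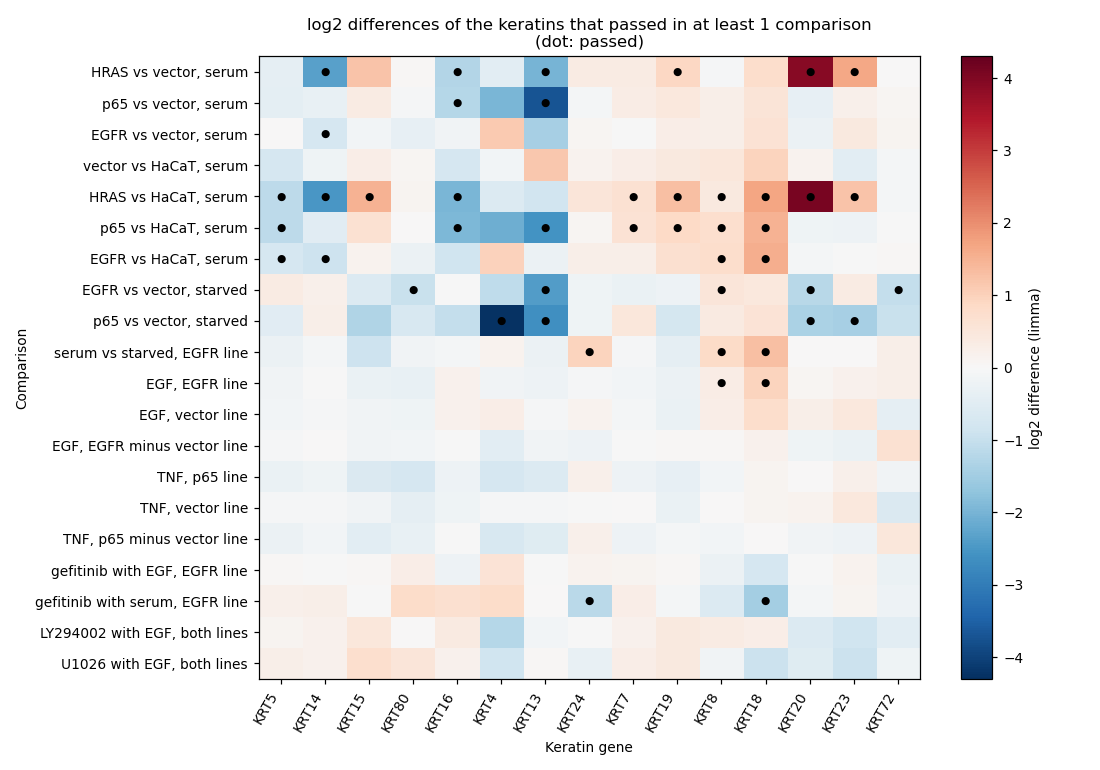
Log2 differences from limma of the 15 keratins that passed in at least 1 of 20 comparisons. Columns are genes, rows are comparisons, colour gives the difference and a dot marks an adjusted p below 0.05. KRT20 stands out in both HaCaT-HRAS comparisons (3.93 and 4.08), KRT13 is lower in HaCaT-p65, and KRT18 carries dots in the HaCaT-EGFR comparisons of EGF, serum and gefitinib with serum.

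HaCaT-HRAS and HaCaT-vector in serum are separate lines, so mutant HRAS cannot be told apart from any other difference between them. In HaCaT-HRAS against HaCaT-vector the simple keratins KRT20, KRT23 and KRT19 rose, and the basal keratin KRT14, the wound keratin KRT16 and the mucosal keratin KRT13 fell. Thus 6 of 44 keratins passed (13.6%), against 18.2% of all genes, and the median log2 difference of all 44 was -0.068 against -0.036 over all genes. KRT20, a keratin of the gut lining and of Merkel cells, read 7.51, 7.81 and 7.63 in HaCaT-HRAS. It read 4.11, 3.47 and 3.59 in HaCaT-vector and 3.67, 3.48 and 3.56 in HaCaT. The 3 HaCaT-HRAS arrays lay above every other array of the series, of which the highest was 5.20. The rise over HaCaT-vector was 3.93 on the log2 scale (SE 0.17, adjusted p = 3.11e-21, limma). KRT23, a type I keratin of simple epithelia, read 7.63, 7.71 and 8.07 in HaCaT-HRAS and 6.13, 6.59 and 5.71 in HaCaT-vector. The groups did not overlap, and the rise was 1.66 (SE 0.313, adjusted p = 8.05e-05, limma). KRT19 read 11.03, 11.53 and 11.41 against 10.09, 10.75 and 10.49, a rise of 0.88 (SE 0.259, adjusted p = 0.0125, limma). It did not pass without HaCaT-vector replicate 1, at 0.70, without HaCaT-HRAS replicate 2, at 0.77, or with the mean of all its probe sets, at 0.69.

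KRT14, the type I keratin of the basal layer, read 10.72, 10.89 and 10.86 in HaCaT-HRAS against 13.03, 13.21 and 13.23 in HaCaT-vector. These 3 arrays were the lowest of the 58 in KRT14, and it fell, with a log2 difference of -2.33 (SE 0.212, adjusted p = 1.72e-11, limma). Its partner KRT5 read 11.53, 11.87 and 11.67 against 11.91, 12.19 and 12.18, a log2 difference of -0.40 that did not pass (adjusted p = 0.245, limma). KRT13 read 8.40, 7.67 and 7.79 against 9.98, 9.90 and 9.95 (log2 difference -1.99, SE 0.55, adjusted p = 0.00699, limma). KRT16 read 7.04, 6.88 and 6.84 against 8.24, 8.15 and 8.15 (log2 difference -1.26, SE 0.292, adjusted p = 0.00124, limma). No array of one group lay within the other for KRT14, KRT13 or KRT16. The third basal keratin, KRT15, read 12.04, 12.98 and 12.63 against 10.97, 11.51 and 11.52, higher on each array of HaCaT-HRAS, yet did not pass (log2 difference 1.21, adjusted p = 0.102, limma). With replicate number as a block within date KRT18, at 0.74, passed as well (adjusted p = 0.0194 against 0.0768 without the block, limma). Of 7 keratinocyte markers that are not keratins 4 fell in the same comparison (DSG3 -0.68, LAMB3 -0.69, PERP -0.54 and SFN -0.89), where 18.2% of all genes passed. Of 4 endothelial markers 1, CDH5, rose, by 4.29, and the other 3 did not pass, with a median over the 4 of 0.11. Whether these changes have a part in the keratin differences was not tested, and in such bulk RNA fewer cells of a kind and less RNA per cell cannot be told apart.

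**Figure D2:**
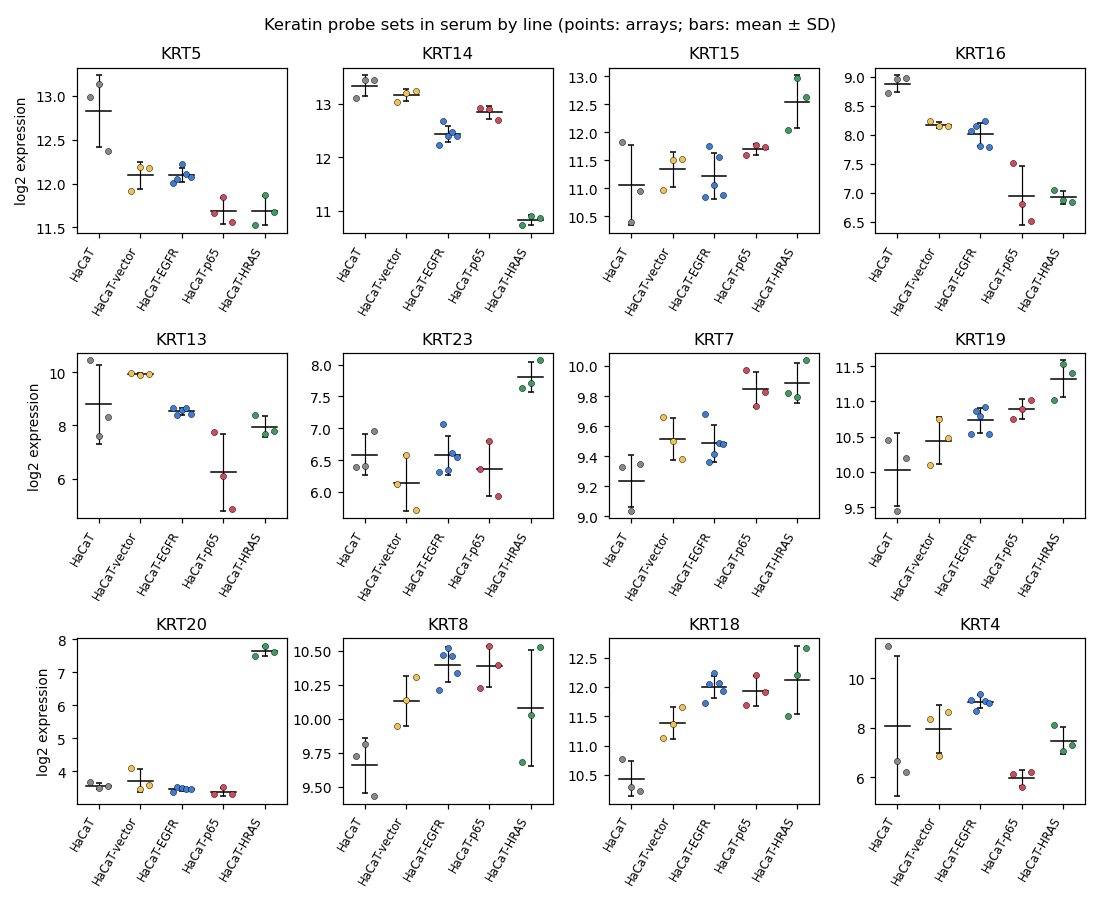
Log2 expression of 12 keratin probe sets in the serum arrays of the 5 lines. Points are arrays and bars the mean ± SD, with 3 arrays a line and 5 for HaCaT-EGFR; each panel has its own axis. KRT20 lies between 7.51 and 7.81 in HaCaT-HRAS and at or below 4.11 in the other lines, and KRT14 is lowest in HaCaT-HRAS. KRT13 has its lowest mean in HaCaT-p65 and spreads widely both there and in HaCaT.

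In HaCaT-p65 against HaCaT-vector in serum, 2 of 44 keratins passed (4.55%), against 7.18% of all genes, and both fell. KRT13 read 7.74, 6.09 and 4.87 in HaCaT-p65 against 9.98, 9.90 and 9.95 in HaCaT-vector. The groups did not overlap, although the HaCaT-p65 arrays lay far apart, and the log2 difference was -3.71 (SE 0.55, adjusted p = 5.15e-06, limma). KRT16 read 7.51, 6.81 and 6.52 against 8.24, 8.15 and 8.15, with a log2 difference of -1.23 (SE 0.292, adjusted p = 0.00401, limma), and did not pass without HaCaT-p65 replicate 3, at -1.02. KRT4, the mucosal partner of KRT13, read 6.11, 5.60 and 6.21 against 8.33, 6.83 and 8.65. Every HaCaT-p65 array was below every HaCaT-vector array, but the difference of -1.96 did not pass (adjusted p = 0.152, limma).

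HaCaT-EGFR against HaCaT-vector in serum differed in 1 of 44 keratins (2.27%), against 7.87% of all genes. KRT14 ran from 12.23 to 12.67 over the 5 HaCaT-EGFR arrays (median 12.39), below the lowest HaCaT-vector array at 13.03. The date correction had set the 2 HaCaT-EGFR arrays of date 6 level, on average, with the 3 of date 1. The fitted KRT14 difference is thus that of date 1, 3 arrays against 3. It was -0.72 on the log2 scale (SE 0.212, adjusted p = 0.023, limma). It did not pass without any of 4 of the 6 arrays of date 1, HaCaT-EGFR replicates 1 and 3 and HaCaT-vector replicates 2 and 3. Values ran from -0.84 to -0.62 over all 8 arrays left out in turn. KRT13 read 8.38 to 8.65 (median 8.57), apart from HaCaT-vector too, with a difference of -1.41 that did not pass (adjusted p = 0.129, limma). It passed with replicate number as a block within date (adjusted p = 0.0361, limma), which gave 2 keratins in place of 1.

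HaCaT-vector itself was set against HaCaT to see what the vector line carries. None of 44 keratins passed limma's test (6 at an unadjusted p below 0.05), against 2.87% of all genes. Nearest to the threshold were KRT5 (log2 difference -0.74, adjusted p = 0.0568, limma), KRT18 (0.95, adjusted p = 0.075, limma) and KRT8 (0.47, adjusted p = 0.0841, limma). Against HaCaT, then, these 3 lines showed more keratin changes than against HaCaT-vector, and these comparisons share the 3 HaCaT arrays. In HaCaT-HRAS 7 keratins rose and 3 fell (22.7%, against 17.7% of all genes), in HaCaT-p65 4 rose and 3 fell (15.9%, against 5.94%), and in HaCaT-EGFR 2 rose and 2 fell (9.09%, against 3.88%).

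KRT18, KRT8 and KRT5 passed against HaCaT in all 3 lines. KRT18, the type I keratin of simple epithelia, read 10.77, 10.30 and 10.23 in HaCaT. It read 11.50, 12.21 and 12.66 in HaCaT-HRAS, 11.69, 12.20 and 11.91 in HaCaT-p65 and 11.72 to 12.24 in HaCaT-EGFR (median 12.05). HaCaT-vector lay between, at 11.12, 11.36 and 11.66, also above every HaCaT array. The log2 differences from HaCaT were 1.69 in HaCaT-HRAS (SE 0.294, adjusted p = 2.62e-05), 1.498 in HaCaT-p65 (adjusted p = 0.000552) and 1.57 in HaCaT-EGFR (adjusted p = 0.000495), all from limma. Its type II partner KRT8 read 9.73, 9.81 and 9.43 in HaCaT and 10.23, 10.53 and 10.39 in HaCaT-p65. It rose by 0.73 there (adjusted p = 0.001, limma), by 0.74 in HaCaT-EGFR (adjusted p = 0.00132, limma) and by 0.42 in HaCaT-HRAS (adjusted p = 0.044, limma). The last of these did not pass without any of 4 of the 6 arrays, HaCaT replicates 1 and 3 and HaCaT-HRAS replicates 2 and 3, at values down to 0.20. HaCaT-vector, at 9.95, 10.14 and 10.31 in KRT8, was above every HaCaT array too, by a log2 difference of 0.47 that did not pass. Between HaCaT-HRAS and HaCaT-vector KRT8 differed by -0.05. The probe sets of KRT8 and KRT18 are of a class that may also bind transcripts of close relatives, and both genes have many pseudogenes, so their values are uncertain in that respect.

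The basal type II keratin KRT5 read 12.99, 13.13 and 12.37 in HaCaT and was lower in each of the other lines, HaCaT-vector among them. It changed by -1.14 in HaCaT-HRAS (adjusted p = 0.000116, limma), by -1.14 in HaCaT-p65 (adjusted p = 0.000435, limma) and by -0.74 in HaCaT-EGFR (adjusted p = 0.0469, limma). The last did not pass when any of 7 of the 8 arrays was left out, at -0.97 to -0.58. Among these 7 were the 2 HaCaT-EGFR arrays of date 6, which the date correction kept from moving the difference. HaCaT-vector, at 11.91, 12.19 and 12.18 in KRT5, was below every HaCaT array, by a log2 difference of -0.74 that did not pass. Between HaCaT-EGFR and HaCaT-vector KRT5 differed by 0.0004. KRT14 changed by -2.51 in HaCaT-HRAS (adjusted p = 2.39e-12, limma) and by -0.90 in HaCaT-EGFR (adjusted p = 0.00705, limma), the latter not passing without HaCaT-EGFR replicate 1 of date 1 (-0.80). KRT16 changed by -1.96 in HaCaT-HRAS and -1.94 in HaCaT-p65 (adjusted p = 1.68e-06 and 1.19e-05, limma). KRT19, a simple keratin without a fixed partner, rose by 1.29 in HaCaT-HRAS and 0.86 in HaCaT-p65, and KRT7 by 0.65 and 0.61. With the mean of all its probe sets KRT7 stood at 0.37 and 0.38 and did not pass, and in HaCaT-p65 it also did not pass without HaCaT-p65 replicate 1 (0.54) or HaCaT replicate 2 (0.51). In HaCaT-HRAS KRT23 rose by 1.22 (adjusted p = 0.00373, limma), and KRT15 by 1.49 (adjusted p = 0.0354, limma), a call lost without replicate 2 or 3 of HaCaT or of HaCaT-HRAS (1.16 to 1.45). The KRT19 rise in HaCaT-p65 did not pass without any array of HaCaT-p65 or without HaCaT replicate 2, at 0.57 to 1.07 over all 6, nor with the mean of all its probe sets (0.69). KRT13 in HaCaT-p65, at -2.56, did not pass without HaCaT replicate 1 (-1.73), an array that read 10.45 where the others read 7.62 and 8.31, nor without HaCaT-p65 replicate 3 (-1.88). In HaCaT-HRAS, where KRT13 was below HaCaT-vector, it lay within the range of the HaCaT arrays, and the difference from HaCaT of -0.84 did not pass (adjusted p = 0.375, limma).

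In starved cells KRT4 and KRT13, 2 of the 7 mucosal and corneal keratins, were lower in HaCaT-p65 than in HaCaT-vector. Starved HaCaT-vector read 9.95, 10.15, 10.23 and 9.68 in KRT4 and 11.15, 11.35, 11.25 and 11.07 in KRT13. Starved HaCaT-p65 read 5.68, 4.83 and 6.75 in KRT4 and 8.32, 8.26 and 9.16 in KRT13. Both keratins were lower on every HaCaT-p65 array. The log2 differences were -4.24 for KRT4 (adjusted p = 0.0124, limma) and -2.62 for KRT13 (adjusted p = 0.0321, limma). KRT23, at 4.58, 4.46 and 5.33 against 6.08, 6.16, 6.73 and 5.90, changed by -1.43 (adjusted p = 0.0423, limma), and KRT20, at 2.96, 3.50 and 3.35 against 4.78, 4.77, 4.64 and 4.32, by -1.36 (adjusted p = 0.000166, limma). These KRT20 levels are in the lower part of the scale. In all 4 of 44 keratins passed (9.09%), against 5.3% of all genes, each of them lower. No date holds starved arrays of both lines, so the differences rest on the date coefficients of the other groups. KRT4 did not pass without HaCaT-p65 replicate 1 of 8 h or HaCaT-vector replicate 1 of date 6, with values from -4.90 to -3.78 over the 7 arrays left out in turn. KRT13 and KRT23 did not pass without replicate 1 of HaCaT-p65 at 4 h or 8 h or HaCaT-vector replicate 1 of date 6, and KRT23 also not without HaCaT-vector replicate 2 of date 5 (KRT13 at -2.85 to -2.46, KRT23 at -1.97 to -1.26).

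HaCaT-EGFR against HaCaT-vector, both starved, differed in 5 of 44 keratins (11.4%), against 7.89% of all genes. KRT13 ran from 7.30 to 9.45 over 7 HaCaT-EGFR arrays (median 9.26), below all 4 HaCaT-vector arrays, with a log2 difference of -2.42 (adjusted p = 0.00937, limma). Within processing date 6, which holds both lines, it was -2.41. Its partner KRT4 ran from 6.77 to 10.09 (median 9.19), overlapping HaCaT-vector at 9.68 to 10.23, and did not pass (difference -1.09, adjusted p = 0.603, limma). KRT20 ran from 3.21 to 3.73 (median 3.42), also below all 4, with a difference of -1.19 (adjusted p = 2.82e-05, limma) and of -0.87 within date 6. KRT72, a keratin of the hair root sheath, ran from 3.67 to 4.22 against 5.46, 5.07, 5.01 and 4.97 (difference -1.04, adjusted p = 0.00779, limma), levels in the lower part of the scale, as were those of KRT20. KRT80 ran from 8.52 to 9.15 against 9.84, 9.94, 9.75 and 9.92 (difference -0.97, adjusted p = 0.0309, limma). KRT8 was the only 1 of the 5 that was higher, at 9.42 to 9.80 against 9.11, 9.05, 8.98 and 8.99 (0.54, adjusted p = 0.0439, limma). Without HaCaT-vector replicate 1 of date 6, KRT13 (-2.65), KRT72 (-1.31) and KRT80 (-0.86) did not pass, nor did KRT80 without the HaCaT-EGFR array of 4 h, replicate 1 and date 6 (-0.86). KRT8 did not pass without any of 7 of the 11 arrays, HaCaT-EGFR replicate 3 of date 3 or any of date 6, and HaCaT-vector of dates 5 and 6, at 0.47 to 0.55. With both HaCaT-EGFR arrays of date 3 and number 3 left out at once these 5 keratins still passed, KRT13 at -2.39.

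**Figure D3:**
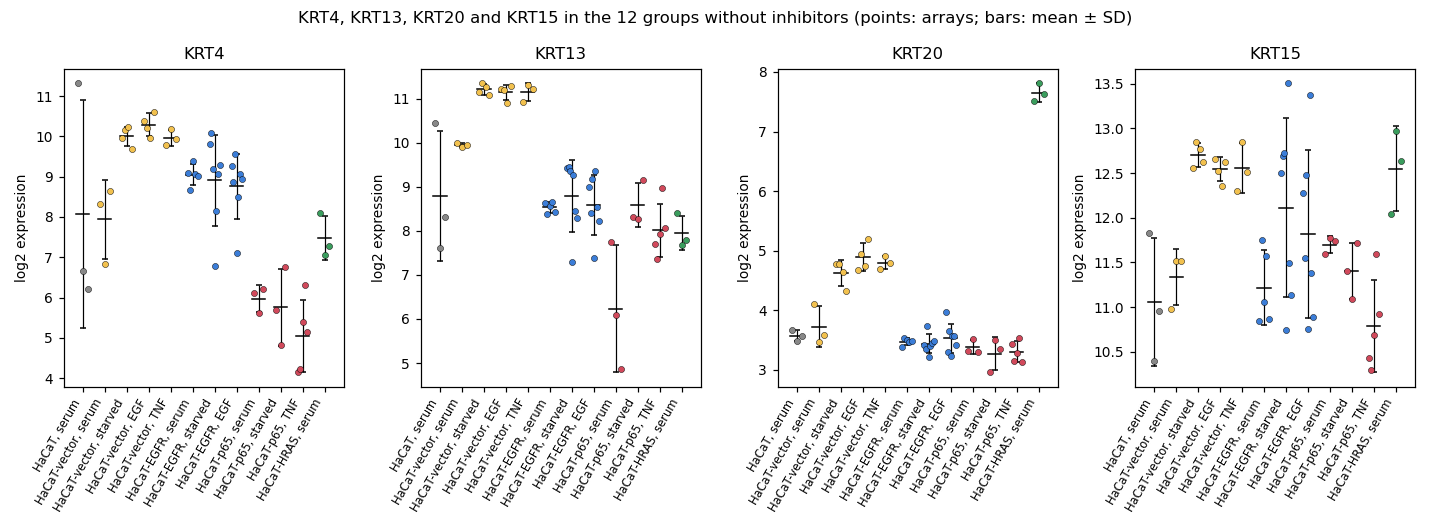
Log2 expression of KRT4, KRT13, KRT20 and KRT15 in the 12 groups without inhibitors. Points are arrays, bars the mean ± SD and colours the lines; each panel has its own axis. HaCaT-vector without serum is highest in KRT13 (10.89 to 11.35), HaCaT-p65 without serum reads 4.15 to 6.75 in KRT4, and KRT15 spans 10.74 to 13.51 among the starved HaCaT-EGFR arrays.

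Serum against starvation in HaCaT-EGFR raised 3 of 44 keratins (6.82%), against 3.25% of all genes, and lowered 0. KRT18 read 9.94 to 11.59 in 7 starved arrays (median 10.57) and 11.72 to 12.24 in 5 serum arrays, without overlap. The rise was 1.30 (SE 0.309, adjusted p = 0.0135, limma). HaCaT-EGFR in serum is the only group that date 1 shares with another date. The date correction therefore set its 3 arrays of date 1 level, on average, with its 2 of date 6. On the serum side, the comparison thus rests on the 2 arrays of date 6. KRT8 read 9.42 to 9.80 (median 9.56) and 10.21 to 10.52 (median 10.46), a rise of 0.83 (adjusted p = 0.00192, limma). KRT24, a type I keratin found in cornea and epidermis, read 4.08 to 4.76 (median 4.33) and 4.93 to 5.81 (median 5.33), a rise of 0.95 (adjusted p = 0.00846, limma). These KRT24 levels are all below the median of all genes. Without the 4 h serum array of date 6 none of the 3 passed, with KRT18 at 1.23, KRT8 at 0.77 and KRT24 at 0.52, and KRT18 did not pass without the 8 h serum array either (1.37). Within date 6, the single date of both media, KRT18 differed by 1.22, KRT8 by 0.81 and KRT24 by 0.98.

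EGF, the ligand of EGFR, raised KRT18 and KRT8, the simple epithelial pair, in HaCaT-EGFR, and no other keratin passed. That is 2 of 44 (4.55%), against 8.8% of all genes. KRT18 read 11.07 to 12.26 with EGF (median 11.60) against 9.94 to 11.59 without (median 10.57), a rise of 0.94 (SE 0.193, adjusted p = 0.00112, limma). The ranges overlapped, but between arrays of the same date, time and replicate number KRT18 was higher with EGF in 7 of 7, by 0.64 to 1.32. The fitted rise lay between 0.79 and 1.11 when any 1 of the 14 arrays was left out and passed each time. KRT8 read 9.53 to 10.16 (median 9.92) against 9.42 to 9.80, a rise of 0.32 (SE 0.0983, adjusted p = 0.0304, limma). It was higher in 7 of 7 such pairs, by 0.11 to 0.59, but did not pass without any of 7 of the 14 arrays, which were starved replicate 1 of date 2 (4 h or 8 h), starved replicate 2 of date 3, starved 8 h of date 6, and EGF at 4 h of replicate 1 of date 2, replicate 3 of date 3 or replicate 2 of date 6, at 0.27 to 0.32. The basal keratins KRT5 and KRT14 differed by -0.16 and -0.03 and did not pass.

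EGF in HaCaT-vector gave 0 of 44 keratins by limma (3 at an unadjusted p below 0.05), against 1.01% of all genes. KRT18 nevertheless read 11.05, 10.96, 10.98 and 10.96 with EGF and 10.30, 10.17, 10.24 and 10.27 without. All 4 EGF arrays lay above all 4 starved arrays, with a difference of 0.74 (adjusted p = 0.215, limma) and of 0.71, 0.77 and 0.69 within dates 4, 5 and 6. KRT8 read 9.34, 9.24, 9.32 and 9.35 against 9.11, 9.05, 8.98 and 8.99. The difference between the lines in the response to EGF passed for 0 of 44 keratins by limma (1 at an unadjusted p below 0.05), against 0% of all genes, at 0.20 for KRT18, so the lines were not shown to differ.

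TNF-α changed no keratin past the threshold in HaCaT-p65 (0 of 44, 1 at an unadjusted p below 0.05, against 2.03% of all genes) or in HaCaT-vector (0 of 44, 1 at an unadjusted p below 0.05, against 0.905%) by limma. The test of the difference between the 2 responses gave 0 of 44 (0 at an unadjusted p below 0.05), against 0.0101% of all genes. Without the starved HaCaT-p65 array of date 3, 1 keratin passed for TNF-α in HaCaT-p65. KRT4 was lower with TNF-α on 4 arrays of HaCaT-p65 than on the starved array of the same date, time and number, by 0.46 to 1.53, with 1 starved array serving for 2 of them, and the fitted difference of -0.72 did not pass (adjusted p = 0.661, limma). KRT15 read 10.43, 10.30, 10.68, 11.60 and 10.92 with TNF-α against 11.40, 11.09 and 11.71 without, a difference of -0.61 that did not pass either (adjusted p = 0.529, limma). KRT80 came nearest, at 7.40, 8.97, 8.54, 8.59 and 8.71 against 9.56, 9.21 and 8.71 (difference -0.71, adjusted p = 0.0914, limma). A single HaCaT-p65 array labelled as TNF-α replicate 3 is described in the study's sample sheet as a control, and the count stayed at 0 without it.

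Gefitinib together with serum lowered KRT18 and KRT24 in HaCaT-EGFR, 2 of the 3 keratins that serum had raised. Of 44 keratins 2 passed (4.55%), against 1.79% of all genes, and this comparison shares the 5 serum arrays with that of serum and starvation. Here too the 3 serum arrays of date 1 were set level with the 2 of date 6, on which the comparison rests. KRT18 read 10.79 (4 h) and 10.26 (8 h) with gefitinib, below all 5 serum arrays, a log2 difference of -1.48 (SE 0.36, adjusted p = 0.0205, limma). KRT24 read 4.23 and 4.18, also below all 5, a difference of -1.16 (adjusted p = 0.00632, limma). KRT8 read 9.85 and 9.77, below the lowest serum array at 10.21, but the difference of -0.58 did not pass (adjusted p = 0.0967, limma). Against the serum array of the same date, time and number, KRT18 was lower by 1.28 at 4 h and 1.67 at 8 h. KRT18 did not pass without either serum array of date 6 or without the 8 h gefitinib array, with values from -1.74 to -1.21 over 7 arrays left out in turn, and KRT24 not without the 4 h serum array (-0.72) or the 8 h gefitinib array (-1.13).

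Gefitinib together with EGF gave 0 of 44 keratins by limma (1 at an unadjusted p below 0.05), against 1.81% of all genes. KRT18 read 11.06 (4 h) and 10.77 (8 h), both below the lowest EGF array at 11.07 and within the range of starved arrays, with a difference of -0.73 (adjusted p = 0.289, limma). KRT8 read 9.67 and 9.63, within the range of both.

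LY294002 and U1026 were each measured on 1 array a line, so their comparisons average HaCaT-EGFR and HaCaT-vector, and the single arrays are assumed to vary like the other groups. LY294002 gave 0 of 44 keratins (5 at an unadjusted p below 0.05), against 0.693% of all genes, and U1026 gave 0 of 44 (4 at an unadjusted p below 0.05), against 3.02%, by limma. With U1026, KRT18 read 10.59 in HaCaT-EGFR and 10.21 in HaCaT-vector, against 11.29 and 10.96 on the EGF array of the same date, time and number. That is lower by 0.70 and 0.76. With LY294002 it read 11.83 and 11.39, higher than the same EGF arrays by 0.54 and 0.43. Against all EGF arrays the U1026 difference was -0.92 (adjusted p = 0.0957, limma) and the LY294002 difference 0.29 (adjusted p = 0.877, limma), so neither passed. KRT23 was lower with both inhibitors in both lines, by 0.66 to 1.08 against the matched EGF arrays, without passing. The matched HaCaT-vector EGF array read 7.00 in KRT23, above the EGF arrays of date 4, replicate 3 (6.51) and date 5 (6.28). KRT20 in HaCaT-vector read 3.84 with LY294002 and 3.79 with U1026 against 4.67 to 5.20 over its EGF arrays. In HaCaT-EGFR KRT20 differed from the matched EGF array by -0.15 with LY294002 and 0.02 with U1026. A KRT7 probe set that was not chosen, with a low mean of 4.08 over the 58 arrays, differed by 1.08 with U1026 over both lines. The chosen KRT7 probe set differed by 0.29 and the remaining ones by 0.29 and 0.38. With EGF in HaCaT-EGFR the first of these differed by -0.49, the chosen by -0.10 and the remaining ones by -0.06 and 0.12.

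**Figure D4:**
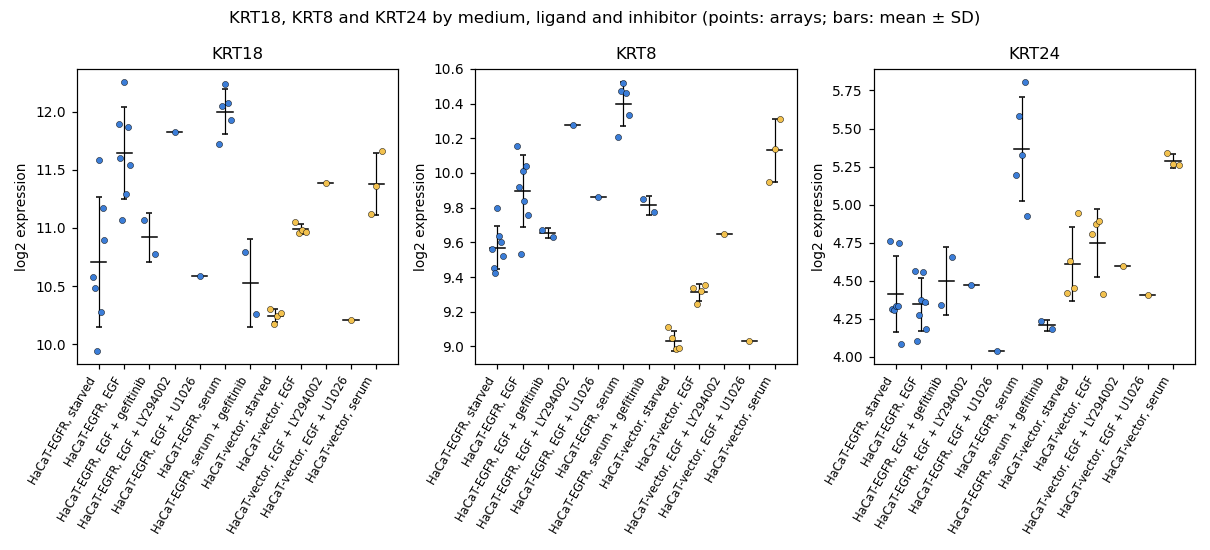
Log2 expression of KRT18, KRT8 and KRT24 in HaCaT-EGFR (blue) and HaCaT-vector (yellow) by medium, ligand and inhibitor. Points are arrays and bars the mean ± SD where a group has more than 1 array. In both lines KRT18 is higher with EGF than without, and it is lower with U1026 (10.59 and 10.21) than on any EGF array of the same line.

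KRT15, the third basal keratin, spread further among HaCaT-EGFR arrays of 1 medium than between most conditions. Starved arrays ran from 10.74 to 13.51 (median 12.50) and EGF arrays from 10.76 to 13.37 (median 11.55). The highest of both were the 4 h arrays of date 6 with number 1, at 13.51 and 13.37, and the LY294002 and U1026 arrays of HaCaT-EGFR, of the same date, time and number, read 13.30 and 13.54. The gefitinib arrays with EGF read 11.74 and 11.99. Against the EGF array of the same date, time and number alone, LY294002 and U1026 again gave 0 keratins each.

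Over the means of 18 conditions Pearson's r between partner keratins was 0.82 for KRT8 and KRT18, 0.67 for KRT4 and KRT13, 0.54 for KRT1 and KRT10 and 0.52 for KRT5 and KRT14, and it was 0.12 for KRT7 and KRT19, simple keratins that are no fixed pair. These describe 18 means that share dates, control groups and a normalization. KRT10 was nearly level, with group means from 9.06 in starved HaCaT-vector to 9.36 in HaCaT-EGFR in serum over the groups in serum or starved. KRT1 passed in none of the comparisons. It read 8.41, 6.15 and 5.14 in HaCaT and between 5.20 and 5.71 in the serum arrays of the other 4 lines, so that 1 HaCaT array was below all of these and replicate 1 far above.

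Proteins that tie keratin filaments to desmosomes, hemidesmosomes and other filaments were listed as 16 genes, and another 16 encode other intermediate filaments. In HaCaT-HRAS against HaCaT-vector 0 linkers rose and 6 fell, where 18.2% of all genes passed. Among the 6 were the epiplakin gene EPPK1 (-1.93) and those of the desmosomal proteins desmoplakin (DSP, -1.06) and plakophilin 2 (PKP2, -0.53), and the median over the 16 was -0.12. Of the other intermediate filaments NEFL, a neurofilament (2.06), SYNM, synemin (1.71), and VIM, vimentin (0.91), rose and the lamin LMNA fell (-0.50). Part of this was shared by HaCaT-EGFR against HaCaT-vector in serum, where 7.87% of all genes passed. There NEFL (1.68), NEFH (1.01) and VIM (0.91) rose and LMNA (-0.62) fell, as did the linkers EPPK1 (-0.98) and FAM83H (-0.41). Against HaCaT, where 3.88% of all genes passed, 0 of either list passed in HaCaT-EGFR. Against HaCaT, where 17.7% of all genes passed, 3 linkers fell in HaCaT-HRAS (DSP -1.13, EPPK1 -1.35 and FLG -2.70), and of the other filaments SYNM alone passed (1.08), with NEFL at 0.60, VIM at 0.12 and LMNA at -0.28. HaCaT-vector itself differed from HaCaT, where 2.87% of all genes passed, in NEFL (-1.46), EPPK1 (0.58), PKP2 (0.47) and FAM83H (0.44). With EGF in HaCaT-EGFR, where 8.8% of all genes passed, 4 linkers rose and 0 fell, namely the plectin gene PLEC (0.58), EPPK1 (0.50), MACF1 (0.50) and PKP2 (0.47), with a median over the 16 of -0.0034. In HaCaT-p65 against HaCaT-vector, where 7.18% of all genes passed, 1 linker, PKP2, fell and 15 did not pass. Of the other filaments NEFL (-2.69) and LMNA (-1.12) fell there and 14 did not pass. Against HaCaT, where 5.94% of all genes passed, NEFL (-4.15), SYNM (-1.10) and LMNA (-0.89) fell in HaCaT-p65, and the linker FAM83H rose (0.56).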

How the data were processed

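Per the study's methods, the authors turned the Affymetrix scans into log2 values with fRMA, estimated the effect of each processing date in a limma model that also held the conditions, and removed it before the table was deposited. RNA was extracted with Trizol for the arrays of date 6 and with RNeasy for the others. The deposited table has 54675 probe sets on 58 arrays, of which 41097 have 1 gene symbol, 1801 several and 11777 none. Where a gene (19775 in all) had several, the brightest on average was used. Array medians lay between 4.98 and 5.24, no arrays were identical, and the number of arrays limits the precision. Conditions were compared with limma 3.58.1 in R 4.3.3, in a single fit of 18 conditions and 6 dates (35 residual degrees of freedom), with Benjamini-Hochberg adjustment over all 19775 genes and a threshold of 0.05. The date term was kept because subtracting it had used its degrees of freedom. Genes were named if they were a basal, wound, KRT1, KRT10, KRT2, mucosal or simple keratin of the fixed lists, or passed in at least 1 comparison; linkers and other filaments are named from those that passed. Same-numbered serum arrays of date 1 were checked for deviating together over all genes. In 3 of 10 pairs of lines all 3 correlations were over 0.1, among them HaCaT-HRAS and HaCaT-vector (0.19 to 0.53) and HaCaT-EGFR and HaCaT-vector (0.22 to 0.53). There the numbers were taken to pair the arrays, from the data and not from the labels. This pairing is uncertain. Replicate 3 of HaCaT-HRAS and of HaCaT-EGFR each correlated more with a HaCaT-vector array of another number. Over all pairs of lines, the own number gave the highest correlation in 20 of 30. The members and lists were chosen with earlier results of these data known. Alternatives were no date term, a replicate block within date, centred arrays, a filter on low values, the mean of all probe sets, limma with trend and robust settings, arrays of 4 h, the compared arrays alone and each array left out. Leaving out both HaCaT-EGFR arrays of date 3 and number 3, and setting LY294002 and U1026 against matched EGF arrays, were chosen after seeing the data. The fit was tested on simulated data. Tables were handled with Python 3.11.15, pandas 2.3.3 and numpy 2.4.6, and figures drawn with matplotlib 3.10.9.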

Additional observations from a re-analysis of the deposited data

Results flagged for a closer look

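Of 108 pairs of a keratin and a group (18 keratins, 6 groups of 4 to 7 arrays), 8 held an array whose gap to its neighbour was larger, relative to the range of the group, than Dixon's critical value. Chance alone flags a small share of such pairs, about 1 in 20. In HaCaT-EGFR with EGF, the 4 h array of replicate 3 and date 3 was highest in KRT7 at 9.98 and lowest in KRT4 at 7.11. In starved HaCaT-EGFR, the array of the same time, number and date was lowest in KRT5 at 11.51 and in KRT14 at 11.53. The starved HaCaT-EGFR array of 4 h, replicate 1 and date 2 was highest in KRT2 at 4.41 and lowest in KRT72 at 3.67. In HaCaT-p65 with TNF-α, KRT80 was lowest at 7.40 on the 4 h array of replicate 1 and date 2. In starved HaCaT-vector, KRT14 was highest at 12.36 on replicate 2 of date 5, in a group with little spread.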

How the results depend on the processing

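Of 345 values of the 46 called keratin differences under alternatives other than leaving out an array, 310 stayed past the threshold, 35 did not and 0 changed sign. With 1 array left out, 284 of 351 stayed, 67 did not and 0 changed sign, and 18 differences held throughout. The following are numbers of keratins that passed, and the causes were not tested. Without a date term there were 2 for HaCaT-EGFR against HaCaT-vector in serum, 3 for HaCaT-vector against HaCaT, 11 for HaCaT-EGFR and 15 for HaCaT-p65 against HaCaT-vector when starved, 9 for serum, 1 for TNF-α in HaCaT-p65, 4 for gefitinib with serum, 2 for LY294002 and 3 for U1026. With only the compared arrays there were 3 for HaCaT-EGFR against HaCaT-vector in serum, 2 and 1 for HaCaT-p65 and HaCaT-EGFR against HaCaT, 0 and 20 for HaCaT-EGFR and HaCaT-p65 against starved HaCaT-vector, 0 for serum, 1 for EGF in each line and 1 for gefitinib with serum. HaCaT-vector against HaCaT gave 1 with centred arrays or with trend and robust settings and 3 with the filter. HaCaT-EGFR against HaCaT-vector, starved, gave 3 with centred arrays, and gefitinib with serum gave 1 with the filter. With 4 h arrays alone there was 1 each for starved HaCaT-p65 against HaCaT-vector, EGF in HaCaT-EGFR and gefitinib with serum. U1026 gave 1 with the mean of all probe sets, and 1 without both HaCaT-EGFR arrays of date 3 and number 3.

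Leaving out 1 array at a time gave 1 to 2 for HaCaT-p65 and 0 to 1 for HaCaT-EGFR against HaCaT-vector in serum, 0 to 2 for HaCaT-vector and 2 to 5 for HaCaT-EGFR against HaCaT, 1 to 5 for HaCaT-EGFR and 1 to 4 for HaCaT-p65 against HaCaT-vector when starved, 0 to 3 for serum, 1 to 2 for EGF in HaCaT-EGFR, 0 to 1 for TNF-α in HaCaT-p65 and 0 to 2 for gefitinib with serum.

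With the replicate block within date, 2 keratins passed for HaCaT-EGFR and 7 for HaCaT-HRAS against HaCaT-vector in serum, the comparisons whose numbers were taken, with the uncertainty given above, to pair the arrays. In comparisons whose numbers are not taken to pair them, the block gave 3 for HaCaT-vector against HaCaT (KRT5, KRT18 and KRT8), 8 for HaCaT-p65 and 5 for HaCaT-EGFR against HaCaT and 6 for starved HaCaT-p65 and 4 for starved HaCaT-EGFR against HaCaT-vector, where KRT8 did not pass, at 0.48. The counts of the other comparisons did not change.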
